A study of Mus musculus with 40 samples.

Results

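Brown fat was compared between mice given blocking antibodies against Jag1 and Jag2 and mice given a control antibody, 7 d after a single dose and without thyroid hormone. The members were chosen by their titles, which name the antibody and the time: 5 control mice (numbered 1 to 5) and 5 Jag antibody mice (6 to 10), together 10 of the 40 mice of the series. All were male C57BL/6 mice, 10 to 14 weeks old per the sample labels (the design text gives a narrower range), each dosed by the intraperitoneal route. Control mice received 40 mg/kg of an antibody to ragweed, a plant antigen. Jag antibody mice received 20 mg/kg of the antibody to Jag1 together with 20 mg/kg of the antibody to Jag2. The same antibody pair was also compared at 15 h, at 5 d, and at 7 d with T4 (1 ug/g) and T3 (0.05 ug/g) given daily from day 2, with 5 mice in each group. The antibodies reached the whole animal, not brown fat alone, and each library came from whole tissue.

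Jag1 and Jag2 are membrane-bound ligands that activate Notch receptors on a neighbouring cell, and a cleaved part of the receptor then switches on target genes such as the Hes and Hey repressors through the DNA-binding protein Rbpj. In blood vessels, Jag1 on endothelial and mural cells signals to Notch3 on the mural cells (pericytes and smooth muscle), which depend on it for their maturation. Brown fat is densely vascularised, and its adipocytes burn fatty acids and glucose for heat through Ucp1.

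Expression is given as CPM, read counts scaled to a common library total by TMM, in the order of mice 1 to 5 and 6 to 10. Fold changes are log2 values of Jag antibody over control mice with their standard errors, from edgeR's quasi-likelihood test with Benjamini-Hochberg adjustment over 17079 genes, and a gene is said to be called, or to have risen or fallen, where the adjusted p was under 0.05. The labels number the mice singly, so the p-values measure spread between mice. Every mouse of the series was in the fit, so this spread was learned from the other groups as well as from those compared.

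Total counts ran from 12217623 to 23985134 in control mice and from 17630191 to 29925942 in Jag antibody mice. Control mouse 4 had the fewest counts, the fewest genes with a count (17213) and the largest mitochondrial share of counts (25.2%). In that library and in that of control mouse 2, log2 CPM also declined with the exonic length of a gene, relative to the average library, by -0.65 and -0.32 for each doubling of length, against -0.21 to 0.03 in the other 8. Across the 10970 protein-coding genes with a length, the fold change between the groups also ran with length (Spearman rho 0.42, and 0.19 without control mice 2 and 4). Its median was -0.28 in the 2743 shortest genes and 0.24 in the 2743 longest. Without these 2 mice 72 genes were called, 66 of them among those called with all mice; of the 94 called genes named here 35 were. Jag antibody mouse 6 stood apart in macrophage and matrix genes and had the highest score for skeletal muscle transcripts (12.3, next to 11.1 in control mouse 5, as mean log2 CPM of 8 muscle genes). Group means of the muscle score (exact two-sided permutation p = 0.659), total count (p = 0.349), mitochondrial share (p = 0.310), TMM factor (p = 0.103) and length slope (p = 0.0952) did not differ past the threshold, and with these 5 measures in the family the lowest adjusted p was 0.258.

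Of the 17079 genes tested, 427 were called (2.5%): 207 rose (1.21%) and 220 fell (1.29%) in Jag antibody mice. The groups did not overlap for 566 genes (3.31%), with Jag antibody mice higher for 1.72% and lower for 1.6% of genes. The median fold change over all tested genes was 0.05. A fit of these 10 mice alone, without the spread learned from the other groups, called 53, and DESeq2 called 858. The 10-mouse fit kept 29 of the 94 called genes named here. Among those described as groups, it called 5 of the 8 pericyte genes, 1 of the 2 collagens, 6 of the 9 amino acid genes and 1 of the 3 immediate early genes. It called none of the lipid synthesis, heat shock chaperone, lipid-associated macrophage and glucocorticoid genes. With single mice left out, the count fell to 144, 209 or 277 without control mouse 2, 4 or 5 and to 160, 257 or 181 without Jag antibody mouse 6, 8 or 10, and it was 848 without control mouse 3. Among the called genes, 95 kept their call with each of the 10 mice left out in turn (39 higher, 56 lower), and 30 (12 higher, 18 lower) also kept it under every alternative analysis, including the one without control mice 2 and 4. Sfxn2, a mitochondrial carrier of the sideroflexin family, had the lowest p of all, with 8.91, 8.43, 10.7, 7.34 and 7.37 CPM in control mice and 20.9, 19.7, 22.3, 20.4 and 21.2 CPM in Jag antibody mice (log2 fold change 1.29 ± 0.15, adjusted p = 3.88e-06). Every Jag antibody mouse lay above every control mouse.

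**Figure D1:**
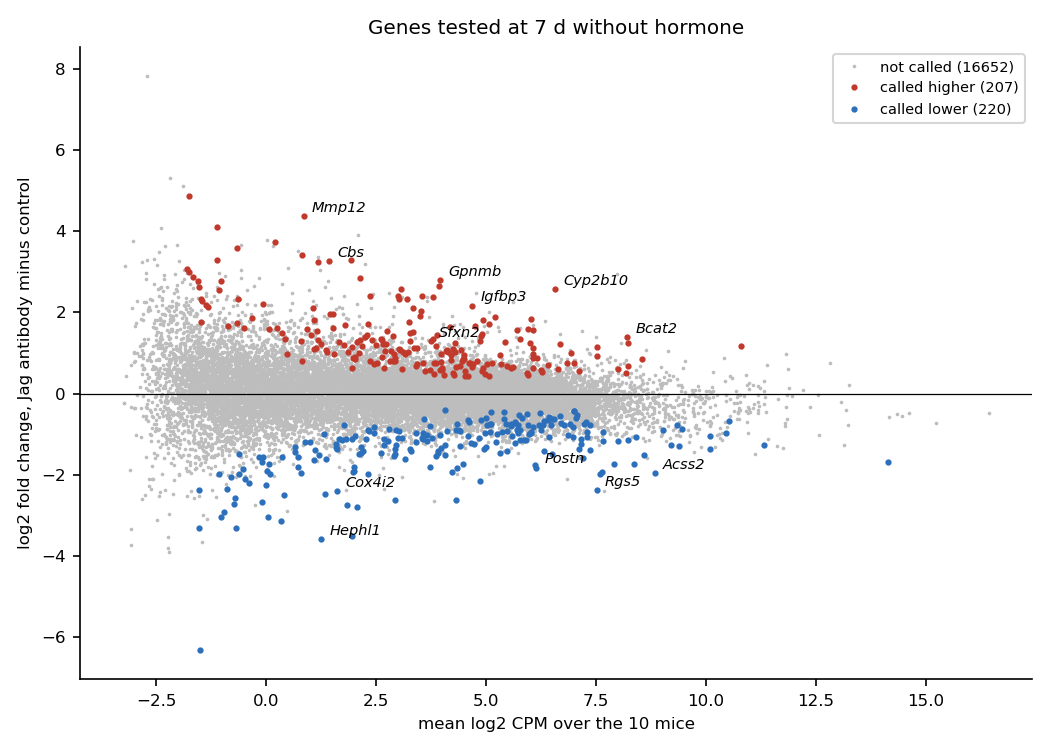
Log2 fold change (Jag antibody over control) against mean log2 CPM for the 17079 tested genes, 1 point a gene. Called genes are coloured by direction, 207 higher and 220 lower, and the called genes lie at low and high expression alike.

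**Figure D2:**
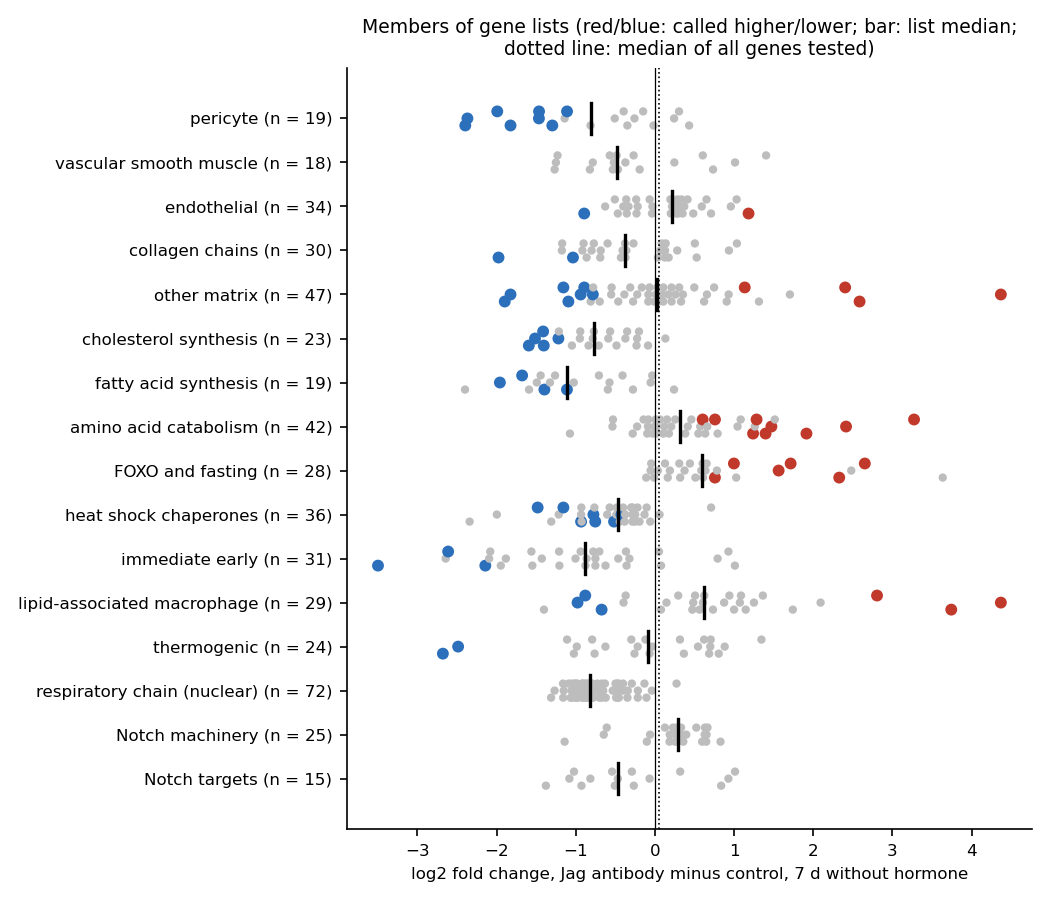
Log2 fold changes of the members of gene lists, 1 point a gene, with the list median as a bar and called genes coloured. The pericyte list, chosen with earlier results of these data known, has 8 of its 19 tested members called lower, against 1.29% of all genes.

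The clearest group was that of pericytes, the mural cells wrapped around capillaries. Of 19 tested pericyte genes 8 fell and none rose (unadjusted p was under 0.05 for 10), where 1.29% of all genes fell, and the list median was -0.81 against 0.05 over all genes. The list was chosen with earlier results of these data known, so its count describes these mice. Rgs5, a regulator of G protein signalling and a widely used pericyte marker, stood at 524, 418, 651, 205 and 376 CPM in control mice and at 63.5, 76.0, 122, 71.8 and 87.8 CPM in Jag antibody mice. The groups were well separated, and Rgs5 was 5.17-fold lower (log2 fold change -2.37 ± 0.31, adjusted p = 2.54e-05). Cox4i2, the cytochrome c oxidase subunit isoform found in pericytes, had 4.11, 6.41, 4.67, 13.7 and 6.94 CPM in controls and 0.948, 1.11, 1.58, 1.79 and 1.31 CPM after blockade (log2 fold change -2.40 ± 0.33, adjusted p = 5.95e-05). Ndufa4l2, a hypoxia-inducible mitochondrial protein likewise enriched in pericytes, had 5.44, 10.6, 10.6, 15.3 and 8.42 CPM and 1.68, 2.78, 3.10, 2.62 and 2.42 CPM in the same order (log2 fold change -1.99 ± 0.29, adjusted p = 1.29e-04). In these 3 genes no Jag antibody mouse reached the lowest control mouse.

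Matrix proteins of the pericyte list moved the same way. Periostin (Postn), a matricellular protein, had 144, 128, 191, 111 and 109 CPM in controls and 26.0, 45.3, 29.1, 40.4 and 52.1 CPM in Jag antibody mice (log2 fold change -1.82 ± 0.26, adjusted p = 7.18e-05). For vitronectin (Vtn) the values were 7.95, 9.22, 9.86, 12.5 and 11.0 CPM and 4.70, 3.28, 2.21, 3.73 and 4.36 CPM (log2 fold change -1.47 ± 0.26, adjusted p = 0.00145). Kcnj8, the pore subunit of the vascular ATP-sensitive potassium channel, had 22.5, 38.1, 27.9, 56.7 and 29.0 CPM and 8.44, 8.91, 20.8, 15.2 and 17.4 CPM (log2 fold change -1.30 ± 0.26, adjusted p = 0.00547). Rgs4, another regulator of G protein signalling, fell (log2 fold change -1.11 ± 0.24, adjusted p = 0.00965), as did Higd1b, a small mitochondrial membrane protein enriched in pericytes (log2 fold change -1.46 ± 0.32, adjusted p = 0.0112). None of the 8 genes overlapped between the groups. Without control mouse 4 alone Higd1b was no longer called (-1.16, adjusted p = 0.0663), and without control mice 2 and 4 neither Higd1b nor Kcnj8 was (adjusted p = 0.188 and 0.145), while the other 6 were.

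**Figure D3:**
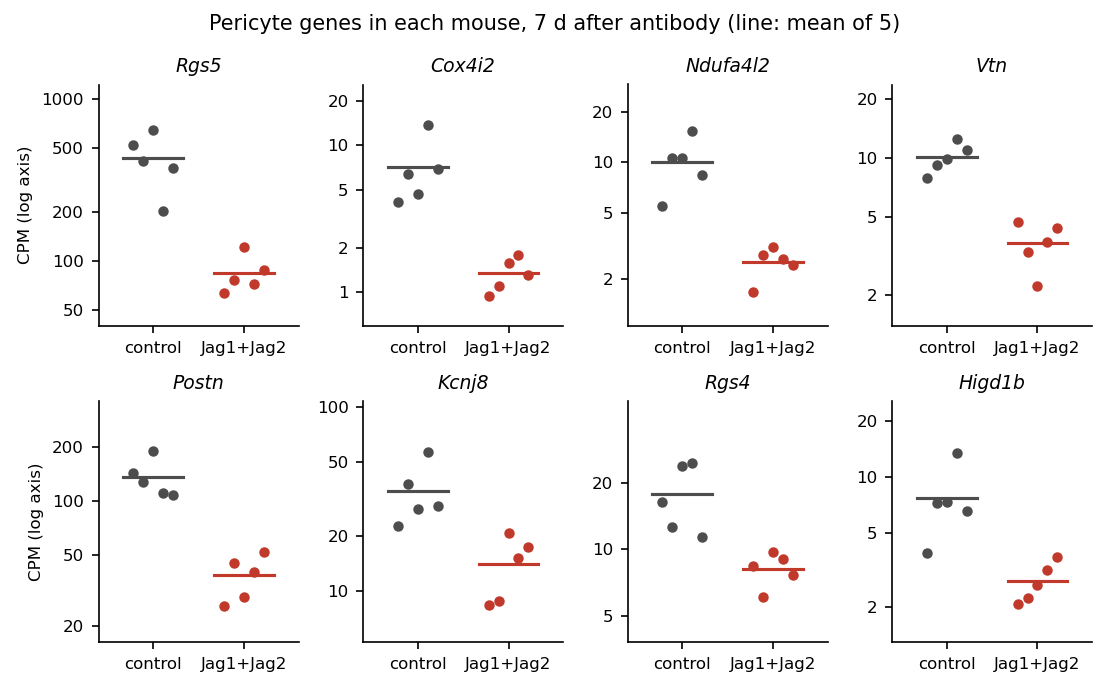
CPM of pericyte genes in each mouse on log axes, control mice beside Jag antibody mice, with the group mean as a line. In Rgs5, Cox4i2, Ndufa4l2, Postn and Vtn every Jag antibody mouse lies below every control mouse.

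The pericyte genes other than these 8 did not pass the test. Pdgfrb, the receptor through which platelet-derived growth factor from the endothelium recruits pericytes, had 27.5, 34.6, 39.9, 34.7 and 32.7 CPM in controls and 29.4, 23.1, 28.8, 18.9 and 32.8 CPM in Jag antibody mice, a log2 difference of -0.35 (adjusted p = 0.245). Notch3, the Notch receptor of mural cells, had 10.2, 10.6, 28.3, 14.7 and 19.7 CPM and 4.09, 5.12, 12.6, 5.59 and 10.5 CPM, a difference of -1.14 (adjusted p = 0.0719); it passed once length and GC trends were taken out (adjusted p = 0.00640). Cspg4, the NG2 proteoglycan, differed by -0.02 (adjusted p = 0.975), Mcam, an adhesion molecule of endothelial and mural cells, by 0.43 (adjusted p = 0.247), and Steap4, a metalloreductase used as a pericyte marker, by -0.51 (adjusted p = 0.479). Within the list the spread was therefore wide, from -2.40 for Cox4i2 to 0.43 for Mcam among the genes named here. Of 18 vascular smooth muscle genes none was called (1 at an unadjusted p under 0.05, and none by DESeq2), with a median of -0.48, and Acta2, smooth muscle actin, ranged from 50.6 to 214 CPM in controls and from 21.8 to 146 CPM in Jag antibody mice.

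Endothelial genes as a list did not share the fall. Of 34 tested, 1 rose (1.21% of all genes rose) and 1 fell (1.29% fell), with a median of 0.22. Pecam1, the pan-endothelial adhesion molecule, differed by 0.32 (adjusted p = 0.362). Emcn, endomucin, a sialomucin of capillaries and veins, was the member that fell, from 54.7, 88.2, 78.5, 68.5 and 67.5 CPM to 28.3, 41.8, 33.4, 52.4 and 36.6 CPM (log2 fold change -0.89 ± 0.19, adjusted p = 0.00829; adjusted p = 0.0815 without control mice 2 and 4). Vwf, the von Willebrand factor of endothelial granules, was the member that rose (log2 fold change 1.18 ± 0.33, adjusted p = 0.0457), a call lost without control mouse 1, 2, 4 or 5, or without Jag antibody mouse 6, 8, 9 or 10 (highest adjusted p = 0.156) and without control mice 2 and 4 (adjusted p = 0.503). Since whole tissue was sequenced, fewer pericytes and less RNA of these genes per pericyte cannot be told apart.

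The fall of the pericyte genes was seen again in other mice at 7 d with hormone and at 5 d, and in 1 gene at 15 h. With thyroid hormone at 7 d, 7 of the 19 fell and none rose (0.439% of all genes fell there), with a median of -0.91. At 5 d 7 fell (5.93% of all genes fell), with a median of -0.60, and at 15 h 1 fell (0.902% of all genes), with a median of -0.28. The 194 calls at 15 h depended on the mice in the fit. A fit of only the mice compared there called 0 genes, and 6 were called without control mouse 2 of that group. The 5 d groups also differed in muscle transcripts, with muscle scores of 5.10 to 13.7 in control and -2.69 to 2.20 in Jag antibody mice. Adjusting for that score left 89 genes called at 5 d (0.521%, with 0.422% lower and 0.0995% higher) in place of 1369. Since the scores of the groups did not overlap, antibody and muscle content cannot be told apart at 5 d, with or without the adjustment. Of the 19 pericyte genes 3 then fell, with a median of -0.62. Rgs5 stood at -2.32 ± 0.31 (adjusted p = 7.23e-05) at 7 d with hormone, at -1.41 ± 0.30 (adjusted p = 0.00598) at 5 d and at -0.74 ± 0.30 (adjusted p = 0.234) at 15 h. Cox4i2 stood at -1.49 ± 0.33 (adjusted p = 0.0130), -1.17 ± 0.32 (adjusted p = 0.0227) and -1.31 ± 0.33 (adjusted p = 0.0440) in the same order. Adjusted in this way at 5 d, Rgs5 was called (-1.48, adjusted p = 0.0433) and Cox4i2 was not (-1.21, adjusted p = 0.137). The 4 comparisons share no mice. Tested as a difference between contrasts, the 7 d value was lower than that at 15 h for Rgs5 (-1.63 ± 0.42, adjusted p = 0.0417), Postn (-2.15 ± 0.36, adjusted p = 0.00250) and Higd1b (-2.01 ± 0.46, adjusted p = 0.0231). Postn was also lower at 7 d than at 5 d (-1.36 ± 0.36, adjusted p = 0.0471). The call of Postn against 15 h held with each of these 20 mice left out in turn and without control mice 2 and 4 of the 7 d group (adjusted p = 0.0104). The others were lost without those 2 mice and without 14 (Rgs5), 5 (Higd1b) and 14 (Postn against 5 d) of the single mice, with highest adjusted p of 0.116, 0.0804 and 0.222.

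**Figure D4:**
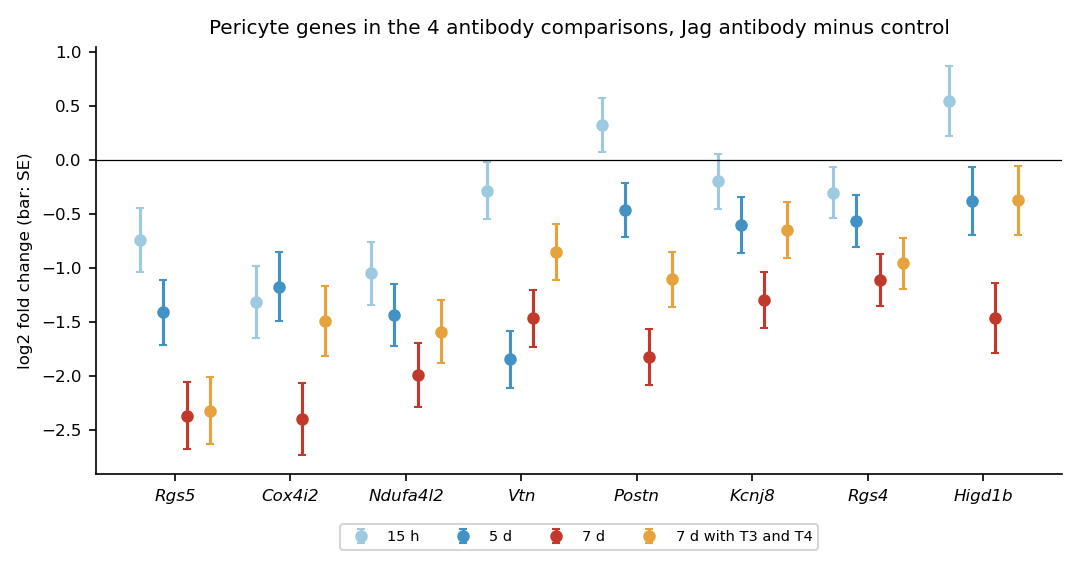
Log2 fold changes of pericyte genes with their standard errors in the 4 antibody comparisons: 15 h, 5 d, 7 d, and 7 d with thyroid hormone. Rgs5, Cox4i2 and Ndufa4l2 lie below 0 in all 4, while Postn and Higd1b lie above 0 at 15 h.

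Collagens, the fibrous matrix that mural cells and fibroblasts lay down, leaned lower, and few passed the test. Of 30 tested genes of the list 2 fell (1.29% of all genes fell) and none rose. In the list 18 lay below 0, and the median was -0.38. Col3a1, a fibrillar collagen of vessel walls and stroma, had 645, 314, 299, 494 and 294 CPM in controls and 125, 139, 46.9, 59.8 and 149.8 CPM in Jag antibody mice (log2 fold change -1.98 ± 0.36, adjusted p = 0.00179), and its call held with each mouse left out and without control mice 2 and 4. Col6a2, a chain of beaded-filament collagen, fell by a smaller amount (log2 fold change -1.04 ± 0.26, adjusted p = 0.0286), a call lost without control mouse 1 or 4, or without Jag antibody mouse 6, 8 or 9 (highest adjusted p = 0.0897) and without control mice 2 and 4 (adjusted p = 0.0815). Col1a2, of the main fibrillar collagen, differed by -0.90 (adjusted p = 0.174), and Col4a1, of the basement membrane, by -0.41 (adjusted p = 0.442). With length and GC trends taken out 7 collagen list genes fell (1.57% of all genes). In the 7 d comparison with hormone 11 fell (0.439% of all genes), and 15 did at 5 d (5.93% of all genes), or 1 there after adjusting for muscle (0.422%).

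Genes that process collagen or accompany it moved in both directions, in a list put together after the values were seen. Of its 47 tested members 7 fell (1.29% of all genes fell) and 4 rose (1.21% rose). In the list 22 lay below and 25 above 0, and the median was 0.03. Periostin, given above, is 1 of those that fell. Serpinh1, the collagen chaperone of the endoplasmic reticulum, had 332, 454, 459, 287 and 518 CPM in controls and 69.3, 264, 265, 140.1 and 181 CPM in Jag antibody mice (log2 fold change -1.16 ± 0.26, adjusted p = 0.0117). Sparc, a collagen-binding matricellular protein (-0.78, adjusted p = 0.0250), Pcolce, an enhancer of procollagen cleavage (-0.94, adjusted p = 0.0339), and Loxl2, a collagen cross-linking oxidase (-0.89, adjusted p = 0.0461), fell too, as did the matrix proteins Spon2 (-1.90, adjusted p = 0.0266) and Matn2 (-1.09, adjusted p = 0.0268). Of these, Serpinh1 kept its call with every mouse left out, and 1 or more of the others lost theirs without control mouse 1, 2, 4 or 5, or without Jag antibody mouse 6, 7, 8, 9 or 10 (highest adjusted p = 0.149). Serpinh1 and Spon2 were also called without control mice 2 and 4. Sparc, Pcolce, Loxl2 and Matn2 were not (adjusted p = 0.104 to 0.224).

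The matrix genes that rose were other ones. Thbs2, a thrombospondin, had 6.03, 3.16, 3.25, 3.67 and 4.26 CPM in controls and 74.7, 13.1, 12.2, 8.28 and 14.6 CPM in Jag antibody mice (log2 fold change 2.59 ± 0.48, adjusted p = 0.00260), with mouse 6 far above the rest (1.55 without it). The secreted metalloproteinase Mmp11 had 1.44, 3.42, 1.31, 3.93 and 3.87 CPM and 44.5, 5.90, 7.00, 5.18 and 10.7 CPM (log2 fold change 2.40 ± 0.47, adjusted p = 0.00422), again highest in mouse 6, without which it was 1.37 (adjusted p = 0.0637). Mmp28, another metalloproteinase, rose with less spread, from 8.96, 6.76, 7.86, 4.31 and 7.46 CPM to 16.5, 11.4, 16.5, 12.8 and 20.8 CPM (log2 fold change 1.13 ± 0.23, adjusted p = 0.00705). In the fibroblast and adipose progenitor list the single called gene was Gsn, the actin-severing protein gelsolin (log2 fold change 1.18 ± 0.28, adjusted p = 0.0195), lost without control mouse 2, or without Jag antibody mouse 6 or 10 (highest adjusted p = 0.102). That list had 19 tested members and a median of -0.22, and over all genes 1.21% rose. With control mice 2 and 4 left out the adjusted p was 0.0561 for Thbs2, 0.128 for Mmp28 and 0.166 for Gsn.

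Genes of lipid synthesis were lower as a group. In the fatty acid synthesis list 4 of 19 tested genes fell and none rose, 18 lay below 0, and the median was -1.11. In the cholesterol synthesis list 5 of 23 fell and none rose, 22 lay below 0, and the median was -0.77. Over all genes 1.29% fell and 46.4% lay below 0. The 9 called genes were Acss2, Elovl5, Fads2, Scd1, Pmvk, Nsdhl, Mvd, Cyp51 and Sqle.

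The promoters of these genes are shown because they moved together. RefSeq promoters (build GRCm38.p6) were matched for 7 of the 9, all but Scd1 and Sqle, and the 250 bases before the start were searched on both strands. The CCAAT box, bound by the NF-Y factor that works with the sterol-responsive SREBP factors at many lipid genes, is the letters CCAAT, read as ATTGG on the other strand. It was in 6 of the 7 windows (85.7%), against 39.6% of the 11628 tested genes with a promoter. Uncalled members of the same lists were not counted apart, so whether the boxes go with the fall or with the pathway was not tested. It was also in 5 of 7 windows (71.4%) of the heat shock chaperones called lower, described further on, and in 2 of 5 (40%) of the called pericyte genes. The 3 windows with more than 1 box are printed 5′ to 3′ in the direction of the gene with the boxes in capitals: Elovl5, chr9:77917115-77917364, plus strand, with boxes starting 71 and 17 bases before the start; Mvd, chr8:122443423-122443672, minus strand, with boxes 60 and 27 bases before it; and Nsdhl, chrX:72918271-72918520, plus strand, with boxes 109 and 20 bases before it.
Elovl5: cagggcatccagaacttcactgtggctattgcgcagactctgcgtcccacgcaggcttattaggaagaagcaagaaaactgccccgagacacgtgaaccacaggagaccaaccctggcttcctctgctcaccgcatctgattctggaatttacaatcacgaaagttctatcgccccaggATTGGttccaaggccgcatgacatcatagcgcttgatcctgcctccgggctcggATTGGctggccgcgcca
Mvd: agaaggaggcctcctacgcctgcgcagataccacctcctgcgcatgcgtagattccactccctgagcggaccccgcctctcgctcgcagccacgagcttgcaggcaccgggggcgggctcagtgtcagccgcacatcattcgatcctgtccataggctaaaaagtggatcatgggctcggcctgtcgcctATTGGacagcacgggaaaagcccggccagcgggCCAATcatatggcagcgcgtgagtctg
Nsdhl: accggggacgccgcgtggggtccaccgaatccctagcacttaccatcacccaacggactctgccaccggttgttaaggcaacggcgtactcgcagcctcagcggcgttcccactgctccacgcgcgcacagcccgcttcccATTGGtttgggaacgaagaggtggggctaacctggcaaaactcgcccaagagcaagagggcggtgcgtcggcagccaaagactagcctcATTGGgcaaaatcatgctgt
A sterol regulatory element, searched as the letters TCACNCCAC, was in none of the 7 and in 1.28% of the tested genes with a promoter. An Rbpj site, GTGGGAA, was in 1 of the 7 (Nsdhl) and in none of the 5 called pericyte genes with a promoter, against 6.45% of those tested. These matches are letters in a window, not bound sites.

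Among the enzymes of fatty acid synthesis, Acss2, which makes cytosolic acetyl-CoA from acetate, had 1366, 1400.1, 626, 645 and 1027 CPM in controls and 108, 363, 151, 531 and 150.3 CPM in Jag antibody mice (log2 fold change -1.96 ± 0.49, adjusted p = 0.0254). Elovl5, an elongase of polyunsaturated fatty acids, had 218, 264, 249, 113 and 245 CPM and 64.2, 141, 93.4, 124 and 81.5 CPM (log2 fold change -1.11 ± 0.29, adjusted p = 0.0315), with control mouse 4 standing lowest among the controls and below Jag antibody mice 7 and 9. Fads2, a desaturase of the same pathway (log2 fold change -1.40 ± 0.33, adjusted p = 0.0192), and Scd1, the stearoyl-CoA desaturase (log2 fold change -1.68 ± 0.47, adjusted p = 0.0437), also fell; Scd1 shares sequence with its paralogues, so its counts are less certain. The enzymes at the core of the pathway did not pass: Fasn, fatty acid synthase, had 12441, 17157, 16915, 13344 and 16466 CPM and 2297, 9855, 2762, 10625 and 6286 CPM, a difference of -1.26 (adjusted p = 0.340), and Acly, ATP citrate lyase, differed by -1.49 (adjusted p = 0.236). Fasn did not overlap between the groups even so.

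In the cholesterol pathway, Pmvk, phosphomevalonate kinase, had 296, 385, 156, 313 and 218 CPM in controls and 49.0, 123, 54.9, 154 and 72.9 CPM in Jag antibody mice (log2 fold change -1.59 ± 0.34, adjusted p = 0.00965). Nsdhl, a sterol dehydrogenase late in the pathway, had 161, 197, 94.4, 108 and 127 CPM and 28.3, 68.9, 39.4, 84.5 and 38.9 CPM (log2 fold change -1.40 ± 0.30, adjusted p = 0.00965). Neither gene overlapped between the groups, and both calls held with each mouse left out. In the fit of these 10 mice alone neither was called (adjusted p = 0.0697 for each), nor any other of the 9 genes. Mvd, mevalonate diphosphate decarboxylase (-1.41, adjusted p = 0.0340), Cyp51, lanosterol demethylase (-1.22, adjusted p = 0.0380), and Sqle, squalene epoxidase (-1.51, adjusted p = 0.0415), also fell. Hmgcs1, the cytosolic HMG-CoA synthase at the head of the pathway, differed by -0.09 (adjusted p = 0.892). Calls of the lipid synthesis genes other than Pmvk and Nsdhl were lost, 1 or more at a time, without control mouse 1, 2, 4 or 5, or without Jag antibody mouse 6, 8 or 10 (highest adjusted p = 0.140). Without control mice 2 and 4, 1 of the 4 fatty acid genes (Fads2, adjusted p = 0.0412) and 0 of the cholesterol genes were called, with list medians of -1.26 and -0.63. In the other comparisons Pmvk stood at -1.15 ± 0.34 (adjusted p = 0.0892) at 7 d with hormone and -1.07 ± 0.34 (adjusted p = 0.0453) at 5 d (-1.45, adjusted p = 0.0607 after adjusting for muscle).

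Of the lipid droplet genes Plin2, the coat protein of small droplets (-0.98, adjusted p = 0.0400), and Cideb, a droplet and lipoprotein protein (-1.56, adjusted p = 0.0480), fell, 2 of 22 tested. Over all genes 1.29% fell and 1.21% rose. In the fatty acid uptake list the single called gene was Slc27a1, a fatty acid transporter, which rose (0.91, adjusted p = 0.0420). In glycolysis 2 of 25 fell and none rose: Pkm, pyruvate kinase, with 558, 811, 680.3, 741 and 803 CPM in controls and 262, 533, 402, 401 and 321 CPM in Jag antibody mice (log2 fold change -0.91 ± 0.19, adjusted p = 0.00875), and Gpi1, glucose phosphate isomerase (log2 fold change -0.94 ± 0.21, adjusted p = 0.0133). Without control mice 2 and 4 the adjusted p of Pkm was 0.0812 and that of Gpi1 0.190. Leaving out single mice ended the calls of Plin2, Cideb, Slc27a1 or Gpi1 without control mouse 1, 2, 4 or 5, or without Jag antibody mouse 6, 7, 8, 9 or 10 (highest adjusted p = 0.153), and Plin2, Cideb and Slc27a1 were not called without control mice 2 and 4 (adjusted p = 0.179 to 0.429).

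A set of genes of amino acid breakdown and transport rose. This list was assembled after the values were seen, so its count describes these mice: 9 of 42 rose and none fell. Over all genes 1.21% rose. Bcat2, the mitochondrial transaminase that starts branched-chain amino acid breakdown, had 142, 227, 199.6, 209 and 145 CPM in controls and 484, 396, 416, 658 and 474 CPM in Jag antibody mice (log2 fold change 1.40 ± 0.22, adjusted p = 3.42e-04). Ppm1k, the phosphatase that activates the branched-chain ketoacid dehydrogenase, had 22.8, 18.0, 21.0, 13.4 and 15.0 CPM and 58.3, 41.3, 52.0, 43.0 and 56.1 CPM (log2 fold change 1.47 ± 0.27, adjusted p = 0.00179). Bckdha, a subunit of that dehydrogenase, differed by -0.09 (adjusted p = 0.886). Cbs, cystathionine beta-synthase, which commits homocysteine to cysteine synthesis, was low in controls, at 0.747, 0.966, 1.25, 1.14 and 0.287 CPM, and stood at 12.6, 7.96, 7.81, 5.38 and 8.09 CPM in Jag antibody mice (log2 fold change 3.27 ± 0.55, adjusted p = 7.38e-04). All Jag antibody mice lay above all control mice for Bcat2, Ppm1k and Cbs, and their calls held in every alternative.

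Prodh, proline dehydrogenase, had 31.9, 48.6, 47.9, 42.4 and 38.0 CPM in controls and 87.4, 107, 82.9, 133 and 83.5 CPM in Jag antibody mice (log2 fold change 1.24 ± 0.28, adjusted p = 0.0117). Slc7a8, a neutral amino acid exchanger, rose 5.33-fold (log2 fold change 2.41 ± 0.57, adjusted p = 0.0178), and Slc43a1, a second neutral amino acid transporter, also rose (1.91, adjusted p = 0.0288). Glud1, glutamate dehydrogenase (0.60, adjusted p = 0.0234), Dhtkd1, of lysine breakdown (1.28, adjusted p = 0.0180), and Oat, ornithine aminotransferase (0.76, adjusted p = 0.0454), rose by smaller amounts or with wider spread. Without Jag antibody mouse 6 the difference was 1.14 for Slc43a1 and 0.32 for Oat. Of these 9, with control mice 2 and 4 left out, only Bcat2, Ppm1k and Cbs were called (adjusted p = 0.0656 to 0.380 for the others). Single mice ended the call of 1 or more of the others without control mouse 1, 2, 3, 4 or 5, or without Jag antibody mouse 6, 9 or 10 (highest adjusted p = 0.299). With hormone at 7 d 9 members of the list rose (0.697% of all genes rose there). Cbs stood at 3.26 ± 0.55 (adjusted p = 8.45e-04) in that comparison and at -0.06 ± 0.51 (adjusted p = 0.959) at 5 d, and the 7 d and 5 d differences differed from each other (3.33 ± 0.74, adjusted p = 0.0278). That last call was lost without control mouse 3 or 5 or Jag antibody mouse 9 of the 5 d group. It was also lost without control mouse 2 or Jag antibody mouse 6 of the 7 d group (highest adjusted p = 0.0904). Without control mice 2 and 4 the adjusted p was 0.0987, and with the muscle score as a covariate no gene differed from 5 d. The muscle difference of the 5 d groups, given above, applies here too.

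Several genes known to respond to FOXO factors, to fasting or to glucocorticoids were higher. In a FOXO and fasting list, also assembled afterwards, 6 of 28 rose and none fell, where 1.21% of all genes rose. Pik3ip1, an inhibitor of phosphoinositide 3-kinase, had 2.67, 2.37, 2.39, 5.95 and 6.94 CPM in controls and 43.6, 13.5, 19.9, 10.7 and 14.2 CPM in Jag antibody mice (log2 fold change 2.33 ± 0.40, adjusted p = 8.39e-04). Klf15, a transcription factor of fasting metabolism, rose as well (log2 fold change 1.56 ± 0.37, adjusted p = 0.0178). Smaller or more variable rises were those of Trp53inp1, an autophagy and stress protein (1.71, adjusted p = 0.0283), Bmf, a pro-apoptotic protein (1.00, adjusted p = 0.0350), and Cdkn1b, a cell cycle inhibitor (0.76, adjusted p = 0.0461). Pdk4, the pyruvate dehydrogenase kinase induced by fasting, differed by -0.05 (adjusted p = 0.943).

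In the glucocorticoid list 2 of 16 rose, where 1.21% of all genes rose. The 2 were Tsc22d3, the leucine zipper protein induced by glucocorticoids (log2 fold change 1.35 ± 0.29, adjusted p = 0.00965), and Fkbp5, a co-chaperone of the glucocorticoid receptor (log2 fold change 2.41 ± 0.61, adjusted p = 0.0282). Fkbp5 had 6.35, 2.55, 6.89, 5.19 and 10.4 CPM in controls and 100.4, 15.3, 15.3, 12.2 and 24.9 CPM in Jag antibody mice, with mouse 6 far above the rest. Without that mouse Fkbp5 differed by 1.41, and the adjusted p was 0.196 for Fkbp5 and 0.0734 for Tsc22d3. Pik3ip1 kept its call with each mouse left out. Calls of Klf15, Trp53inp1, Bmf, Cdkn1b or Fkbp5 were lost without control mouse 1, 2, 3, 4 or 5, or without Jag antibody mouse 6, 8 or 10 (highest adjusted p = 0.196). Pik3ip1 was also called without control mice 2 and 4 (adjusted p = 0.0203), and Klf15, Trp53inp1, Bmf, Cdkn1b, Tsc22d3 and Fkbp5 were not (adjusted p = 0.125 to 0.498).

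Chaperones were lower. In a heat shock list assembled afterwards 7 of 36 fell, none rose, 34 lay below 0 and the median was -0.46. Over all genes 1.29% fell and 46.4% lay below 0. Dnajb1, the inducible co-chaperone of the heat shock response, had 204, 119, 200.2, 125 and 149 CPM in controls and 27.4, 93.9, 69.8, 46.4 and 47.9 CPM in Jag antibody mice (log2 fold change -1.48 ± 0.25, adjusted p = 7.57e-04), without overlap. Stip1, which joins the main heat shock proteins, and Cacybp, a calcyclin-binding protein, fell by 0.78 (adjusted p = 0.00965) and 0.75 (adjusted p = 0.00367) on the log2 scale. The others were Dnaja1 (-0.93, adjusted p = 0.0282), the chaperonin subunits Cct3 (-0.52, adjusted p = 0.0392) and Cct7 (-0.42, adjusted p = 0.0467), and the collagen chaperone Serpinh1 given above. Hsp90ab1, the constitutive and abundant member, differed by -0.40 (adjusted p = 0.218). Dnajb1, Stip1 and Cacybp kept their calls with every mouse left out, and the calls of Dnaja1, Cct3 or Cct7 were lost without control mouse 2, 3, 4 or 5, or without Jag antibody mouse 6, 7, 8, 9 or 10 (highest adjusted p = 0.148). Dnajb1 and Stip1 were also called without control mice 2 and 4 (adjusted p = 0.00121 and 0.0187), as was Serpinh1. Cacybp, Dnaja1, Cct3 and Cct7 were not (adjusted p = 0.0656 to 0.302). With length and GC trends taken out Stip1 was not (adjusted p = 0.0546). A heat shock element pair, the letters GAANNTTC or TTCNNGAA, was in 1 of these 7 promoters (Dnaja1), against 12.4% of the tested genes with a promoter.

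Among immediate early genes, whose transcripts respond within minutes to stimuli, 3 of 31 fell and none rose, with a median of -0.88. Over all genes 1.29% fell. Ier3, an early response gene of cell survival, had 31.1, 73.2, 15.2, 106 and 52.7 CPM in controls and 12.0, 13.7, 6.52, 8.07 and 5.14 CPM in Jag antibody mice (log2 fold change -2.61 ± 0.54, adjusted p = 0.00708). Egr2, a zinc finger factor (-3.50, adjusted p = 0.0253), and Ccn1, a secreted matricellular protein (-2.14, adjusted p = 0.0399), fell with wider spread. Without control mouse 1 they differed by -1.69 and -1.39. Ier3 kept its call with each mouse left out and not without control mice 2 and 4 (adjusted p = 0.146). Egr2 or Ccn1 lost theirs without control mouse 1, 2 or 5, or without Jag antibody mouse 6, 8, 9 or 10 (highest adjusted p = 0.162). Egr2 was called without control mice 2 and 4 (adjusted p = 0.0313), and Ccn1 was not (adjusted p = 0.0561).

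Few macrophage genes passed the test. In the list of lipid-associated macrophages, which take up and digest lipid, 3 of 29 rose, 3 fell, 23 lay above 0 (13 of the 29 had an unadjusted p under 0.05, as 20.5% of all genes did), and the median was 0.62. Over all genes 1.21% rose and 1.29% fell. The summed CPM of the list ran from 13832 to 17589.7 in controls and from 14265 to 17222 in Jag antibody mice. Abundant members weigh most in that sum. Lpl had a mean log2 CPM of 11.5 in controls and 12.2 in Jag antibody mice, and Gpnmb had 2.79 and 5.14. Gpnmb, a lysosomal glycoprotein of such macrophages, had 9.02, 5.27, 5.13, 11.4 and 5.21 CPM in controls and 152, 27.3, 20.5, 27.4 and 22.8 CPM in Jag antibody mice (log2 fold change 2.81 ± 0.67, adjusted p = 0.0192). Mmp12, macrophage elastase, had 0.747, 0.0878, 0.570, 1.52 and 0.526 CPM and 55.6, 5.79, 3.32, 2.83 and 0.969 CPM (log2 fold change 4.37 ± 0.96, adjusted p = 0.0112). Atp6v0d2, a subunit of the lysosomal proton pump, had 0.907, 0.176, 0.285, 0.380 and 0.287 CPM and 21.4, 1.95, 1.58, 2.35 and 1.02 CPM (log2 fold change 3.74 ± 0.85, adjusted p = 0.0146). Mouse 6 was far above the other 4 Jag antibody mice for all 3 genes. Without it the differences were 1.78 for Gpnmb (adjusted p = 0.139), 2.28 for Mmp12 (adjusted p = 0.145) and 2.01 for Atp6v0d2 (adjusted p = 0.172). None of the 3 was called without control mice 2 and 4 (adjusted p = 0.0957 to 0.159). Mouse 6 also had the highest muscle score of the 10 libraries (12.3), whose part in these values was not tested.

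The members of the list that fell were lysosomal or lipid-handling genes that many cells express: Npc2, a cholesterol carrier of the lysosome (-0.88, adjusted p = 0.0282), Ctsd, the protease cathepsin D (-0.67, adjusted p = 0.0352), and Plin2, given above. Npc2 or Ctsd lost its call without control mouse 2, 4 or 5, or without Jag antibody mouse 6, 8 or 10 (highest adjusted p = 0.120), and neither was called without control mice 2 and 4 (adjusted p = 0.365 and 0.389). Lpl, lipoprotein lipase, differed by 0.61 (adjusted p = 0.209), and Apoe, the apolipoprotein, by 0.87 (adjusted p = 0.134). None of the 23 resident macrophage genes was called (21 above 0, median 0.61, 5 at an unadjusted p under 0.05, none by DESeq2), nor any of the 22 neutrophil and monocyte genes (1, none by DESeq2) or the 33 lymphocyte genes (6, and 1 by DESeq2).

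Of 38 tested genes of chemokines and their receptors 1 rose and 1 fell, where 1.21% of all genes rose and 1.29% fell. Cxcl13, the attractant of B cells, had 3.04, 0.878, 1.31, 1.52 and 1.96 CPM in controls and 66.3, 6.46, 4.27, 3.86 and 5.82 CPM in Jag antibody mice (log2 fold change 3.29 ± 0.90, adjusted p = 0.0420). It was highest in mouse 6, and without that mouse it was not called (1.52, adjusted p = 0.302). Single mice whose omission ended the call were control mouse 1, 2, 3, 4 or 5, and Jag antibody mouse 6 or 10 (highest adjusted p = 0.302). Ackr3, a scavenging chemokine receptor, fell (-1.08, adjusted p = 0.0491), a call lost without control mouse 1, 2 or 4, or without Jag antibody mouse 6, 9 or 10 (highest adjusted p = 0.205). Neither chemokine gene was called without control mice 2 and 4 (adjusted p = 0.343 and 0.363).

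**Figure D5:**
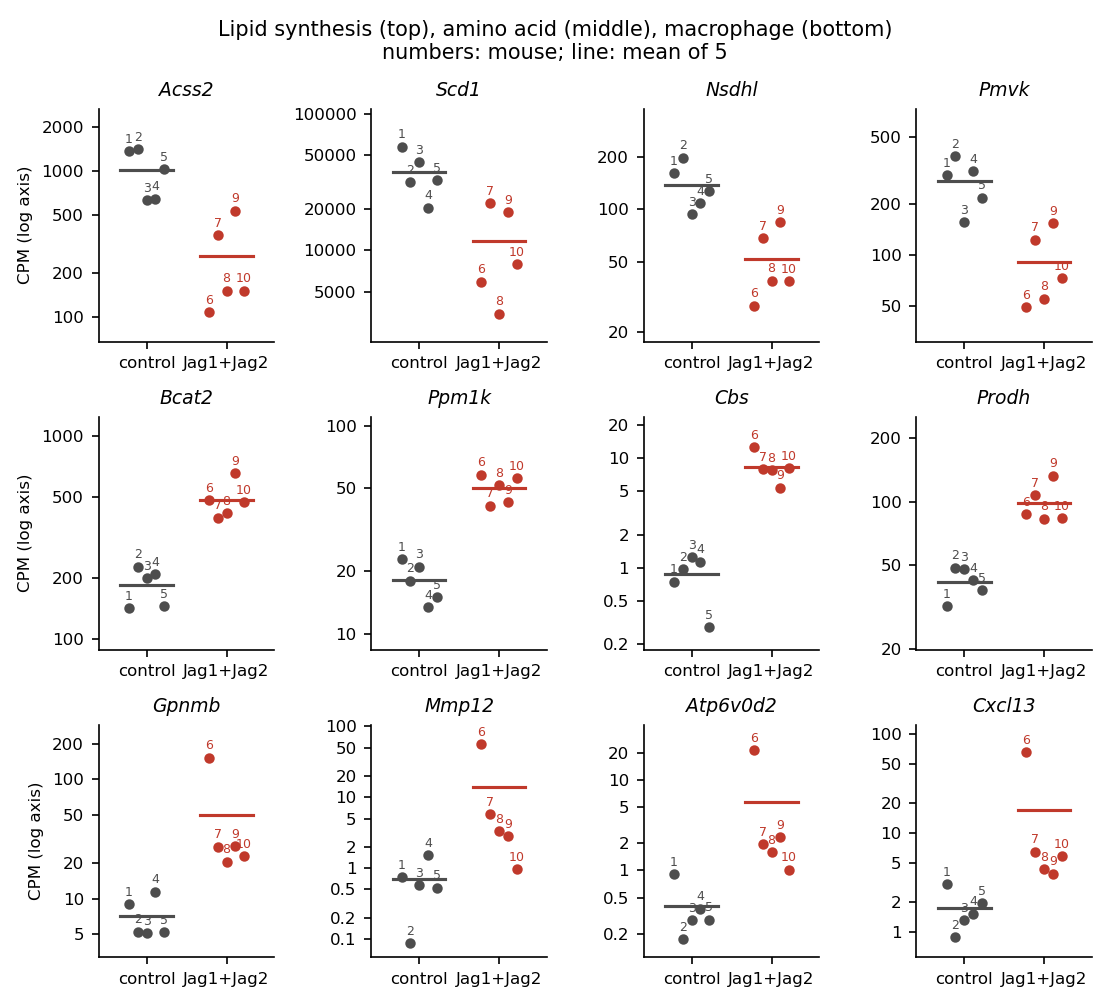
CPM on log axes of lipid synthesis genes (top), amino acid genes (middle) and macrophage and chemokine genes (bottom), 1 point a mouse with its number and a line at the group mean. Bcat2, Ppm1k and Cbs are separated between the groups, and in the bottom row Jag antibody mouse 6 lies far above the other mice.

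As a check of the tissue, Ucp1, the proton carrier of brown fat, was abundant in every library, at 7140.1, 21295, 10809, 20023 and 12145 CPM in controls and 2044, 11602, 14051, 6577 and 7828 CPM in Jag antibody mice. The groups overlapped, the lowest value was that of mouse 6, and the log2 difference was -0.76 (adjusted p = 0.283). Of 24 thermogenic genes 2 fell (1.29% of all genes fell) and none rose. Both encode secreted factors of brown fat: Bmp8b, a bone morphogenetic protein (log2 fold change -2.49 ± 0.63, adjusted p = 0.0283), and Fgf21, a fibroblast growth factor (log2 fold change -2.68 ± 0.70, adjusted p = 0.0346). Fgf21 had 1.81, 5.97, 0.456, 1.52 and 2.63 CPM and 0.172, 0.445, 0.590, 0.345 and 0.339 CPM and Bmp8b had 1.55, 1.14, 6.67, 1.39 and 6.51 CPM and 0.302, 1.11, 0.848, 0.552 and 0.291 CPM. Their calls were lost, 1 or both, without control mouse 2 or 5, or without Jag antibody mouse 6, 8, 9 or 10 (highest adjusted p = 0.160); without control mice 2 and 4 Bmp8b was called (adjusted p = 0.0253) and Fgf21 was not (adjusted p = 0.311). Cidea, a droplet fusion protein of brown adipocytes, differed by -0.79 (adjusted p = 0.214) and Dio2, the deiodinase that activates thyroid hormone within the tissue, by -0.63 (adjusted p = 0.588).

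Transcripts of the nuclear respiratory chain leaned lower without a call. Of 72 genes 71 lay below 0 (46.4% of all genes did) and 48 had an unadjusted p under 0.05 (20.5% of all genes). None passed the adjusted test by edgeR and 1 did by DESeq2, and the median was -0.82. Most are short genes, and the median was -0.48 with length and GC trends taken out and -0.22 without control mice 2 and 4. Cox4i1, the general isoform of the subunit whose pericyte isoform is Cox4i2, differed by -0.63 (adjusted p = 0.256), and Atp5b, the catalytic subunit of ATP synthase, by -0.22 (adjusted p = 0.551). The 13 protein genes of the mitochondrial genome had a median of -0.50 with none called (8 at an unadjusted p under 0.05, 2 called by DESeq2), and mt-Nd1, a subunit of complex I, differed by -0.72 (adjusted p = 0.152). Ribosomal protein genes, also short, had a median of -0.53 over 37 genes with none called (3 at an unadjusted p under 0.05, none by DESeq2), and of 0.04 without control mice 2 and 4.

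The transcripts of the blocked ligands, whose proteins the antibodies bind, were measured as well. Jag1 had 22.4, 15.1, 28.8, 11.4 and 22.6 CPM in controls and 29.6, 31.7, 30.1, 28.6 and 35.5 CPM in Jag antibody mice, a difference of 0.63 (adjusted p = 0.139), and Jag2 had 7.47, 9.05, 18.5, 10.8 and 15.5 CPM and 14.4, 17.0, 21.5, 8.83 and 16.9 CPM, a difference of 0.36 (adjusted p = 0.516). The groups overlapped for both. Of 25 genes of Notch ligands, receptors and machinery none was called by edgeR and 1 was by DESeq2, with a median of 0.29. An unadjusted p under 0.05 was found for 8, and for 20.5% of all genes. The receptor differences were 0.83 (adjusted p = 0.277) for Notch1, 0.19 (adjusted p = 0.720) for Notch2 and 0.60 (adjusted p = 0.240) for Notch4, with Notch3 given above. Of 15 Notch target genes none was called either (7 at an unadjusted p under 0.05, and 3 called by DESeq2, median -0.47). Hes1, the most general target, had 8.43, 13.3, 9.40, 18.9 and 14.8 CPM and 6.81, 8.24, 10.1, 4.28 and 7.22 CPM, a difference of -0.82 (adjusted p = 0.0907). Hey1, the endothelial target, differed by -0.47 (adjusted p = 0.327), Hey2 by 0.84 (adjusted p = 0.203) and Heyl, a target in mural cells, by -0.07 (adjusted p = 0.941). In the thyroid hormone list 1 of 17 rose (1.21% of all genes rose), Rxra, the partner of the thyroid hormone receptors (0.72, adjusted p = 0.0192). That call was lost without control mouse 2 or 4, or without Jag antibody mouse 6, 8 or 10 (highest adjusted p = 0.103) and without control mice 2 and 4 (adjusted p = 0.245).

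Further genes stood out by the size or the firmness of their change. Igfbp3, a binding protein of insulin-like growth factors, had 5.97, 11.6, 15.2, 16.8 and 15.2 CPM in controls and 109, 44.2, 43.8, 54.7 and 38.2 CPM in Jag antibody mice (log2 fold change 2.17 ± 0.30, adjusted p = 5.95e-05). Grb14, an adaptor that dampens insulin receptor signalling, had 77.5, 96.2, 33.6, 76.1 and 63.7 CPM and 17.7, 32.4, 31.4, 24.1 and 19.5 CPM (log2 fold change -1.47 ± 0.23, adjusted p = 3.42e-04). Galnt15, an enzyme of mucin-type glycosylation, had 18.8, 17.7, 26.0, 12.8 and 23.3 CPM and 117, 49.6, 68.6, 56.5 and 73.8 CPM (log2 fold change 1.89 ± 0.30, adjusted p = 3.27e-04). Each was separated without overlap and called in every alternative and with each mouse left out. The same held for the rises of Ppl, periplakin of the cell cortex (1.76, adjusted p = 4.28e-04), Papss2, which makes the sulfate donor (1.41, adjusted p = 6.66e-04), and Mylip, a ligase that degrades the LDL receptor (1.29, adjusted p = 7.38e-04). It held as well for the falls of Fer1l6, a ferlin (-2.74, adjusted p = 9.50e-04), Ncan, the proteoglycan neurocan (-2.47, adjusted p = 0.0105), Tspan6, a tetraspanin (-1.16, adjusted p = 3.15e-04), Nrep (-1.84, adjusted p = 3.54e-04), Il18bp, which neutralises interleukin 18 (-1.53, adjusted p = 0.00687), and H2-Q10, a class I histocompatibility gene whose counts near-identical relatives could share (-1.94, adjusted p = 5.95e-05).

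Other genes with some of the steepest changes held under fewer conditions. Hephl1, a ferroxidase, fell (-3.59, adjusted p = 0.0108), as did Phlda1, a pleckstrin-domain protein (-1.94, adjusted p = 0.00965), and Kcng4, a potassium channel subunit (-2.80, adjusted p = 0.0498). Cyp2b10, a xenobiotic-metabolising enzyme with close paralogues, rose (2.57, adjusted p = 0.0102), as did Inmt, a methyltransferase of small amines (2.38, adjusted p = 0.0253). Orm1, an acute-phase protein, fell (-1.36, adjusted p = 0.0192). Hephl1 and Cyp2b10 kept their calls with each mouse left out, but Cyp2b10 was not called without control mice 2 and 4 (adjusted p = 0.104) nor Hephl1 in the fit of the 10 mice alone (adjusted p = 0.0697). Kcng4, Inmt and Orm1 were not called without those 2 control mice either (adjusted p = 0.187 to 0.280). With single mice left out, 1 or more of Phlda1, Kcng4, Inmt and Orm1 lost theirs without control mouse 1, 2, 4 or 5, or without Jag antibody mouse 6, 7, 8 or 10 (highest adjusted p = 0.133).

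Lists in which edgeR called no gene covered interferon response (35 genes, 0 at an unadjusted p under 0.05, none by DESeq2), class II histocompatibility (11 and 0, none by DESeq2), the cell cycle (35 and 3, 2 by DESeq2) and the circadian clock (19 and 11, 2 by DESeq2). Skeletal muscle genes had a median of 1.23 with none called (none at an unadjusted p under 0.05 or by DESeq2), and their summed CPM ran from 10.6 to 31633 in controls and from 93.1 to 68537 in Jag antibody mice. Des, desmin, which both muscle and mural cells express, differed by 1.40 (adjusted p = 0.400), and by -1.16 without mouse 6.

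The called genes were set beside the comparison with thyroid hormone at 7 d, which used 10 other mice. There 372 of the 427 (87.1%) had the same sign. In the same direction 61 were called, 14.3% of the 427 and 31.4% of the 194 called with hormone (1.14% of all genes). The share of all tested genes with the same sign was not computed, so the same-sign counts here have no background beside them. At 5 d 329 (77.0%) had the same sign, with 84 called the same way (19.7% of the 427, and 6.14% of the 1369 called at 5 d, 8.02% of all genes, 2.09% higher) and 6 the opposite way, with the muscle difference of the 5 d groups given above. At 15 h 256 (60.0%) had the same sign. There 8 were called the same way (1.87% of the 427) and 2 the opposite way. The 8 were 4.12% of the 194 called at 15 h (1.14% of all genes). In all 3 comparisons at 5 d and 7 d, 36 genes were called in the same direction, 16 higher and 20 lower. Over all genes 2.5% were called at 7 d, 1.14% at 7 d with hormone and 8.02% at 5 d.

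Tests of the difference itself separated few genes from the hormone comparison and more from the earlier times. Against 7 d with hormone 1 of 17079 genes passed (0.00586%): Eva1a, a membrane regulator of autophagy, at -0.75 ± 0.27 (adjusted p = 0.125) without and 1.39 ± 0.27 (adjusted p = 0.00529) with hormone, a difference of -2.14 ± 0.39 (adjusted p = 0.0494). It was not called in a fit of only these 20 mice, nor without most of the single mice. DESeq2 called 9 genes and limma on FPKM 36. Against 5 d, 220 genes differed (1.29%), of which 199 (1.17%) had the higher and 21 (0.123%) the lower value at 7 d. That count ran from 5 without Jag antibody mouse 6 of the 7 d group to 968 without control mouse 2 of the 5 d group, so the named genes describe these mice. Thbs2 (4.31 ± 0.67, adjusted p = 0.00308), Aebp1, a collagen-binding matrix protein (3.91 ± 0.71, adjusted p = 0.0170), and Larp6, which binds collagen transcripts (3.66 ± 0.68, adjusted p = 0.0170), had the lowest p in that direction. Tmem184a (-2.58 ± 0.55, adjusted p = 0.0224), Trit1, a tRNA-modifying enzyme (-1.07 ± 0.21, adjusted p = 0.0173), and Fam50a (-0.83 ± 0.16, adjusted p = 0.0170) had the lower value at 7 d. Of these, Thbs2 and Fam50a kept their calls with each mouse left out. Aebp1, Larp6, Trit1 and Tmem184a were not called without Jag antibody mouse 6 of the 7 d group (highest adjusted p = 0.0789). Tmem184a was also not called without control mouse 3 of that group or Jag antibody mouse 10 of the 5 d group. In the 7 d comparison itself Aebp1 (1.63, adjusted p = 0.0670), Trit1 (-0.22, adjusted p = 0.404) and Fam50a (-0.29, adjusted p = 0.154) were not called. With the muscle score as a covariate, or without control mice 2 and 4, no gene differed from 5 d by edgeR (1238 and 2127 genes at an unadjusted p under 0.05), while DESeq2 with all mice called 964.

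Against 15 h, 223 genes differed (1.31%), 177 (1.04%) with the higher and 46 (0.269%) with the lower value at 7 d. Plk2, a stress-responsive kinase (1.46 ± 0.21, adjusted p = 5.75e-04), Rassf4 (2.66 ± 0.42, adjusted p = 0.00128) and Pik3ip1 (3.35 ± 0.55, adjusted p = 0.00238) were the firmest in that direction. Postn, given above, Hebp2, a haem-binding protein (-3.50 ± 0.55, adjusted p = 0.00128), and Il18bp (-2.37 ± 0.44, adjusted p = 0.0103) were the firmest in the other. These 6 calls held with each of the 20 mice left out and without control mice 2 and 4. In the 7 d comparison itself Plk2 was not called (0.52, adjusted p = 0.0513), while Rassf4, Pik3ip1, Postn, Hebp2 and Il18bp were. Without control mice 2 and 4, 12 genes differed from 15 h. Leaving out single mice gave counts from 10 (control mouse 2 at 7 d) to 696 (control mouse 1 at 15 h), with 13 without Jag antibody mouse 6.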

How the data were processed

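Brown fat RNA from 10 mice was compared within a series of 40, 1 library each. Per the labels' protocols, RNA was extracted with Trizol and columns and read as single-end 50 bp reads on an Illumina HiSeq. The submitters' processing notes name GSNAP and limma. Versions, the genome build, the counting program and strand use are not given in the sources used here, so reads of overlapping or antisense genes cannot be separated.

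The authors deposited raw counts for 52636 genes, used for all tests, and FPKM values, used for 1 alternative as log2(FPKM + 1). Counts were tested with edgeR 4.0.16 (R 4.3.3): filterByExpr over the 8 groups kept 17079 genes, libraries were scaled by TMM, and 1 robust quasi-likelihood fit of 40 mice gave the contrasts, with Benjamini-Hochberg adjustment at 0.05. Log2 CPM used a prior count of 2. Depth was 12217623 to 29925942 counts per library, and intervals cover the spread between mice. Lengths came from GENCODE M21 (GRCm38), promoters from RefSeq.

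Alternatives were DESeq2 1.42.0, limma 3.58.1 on FPKM, RLE factors, no filter, fewer mice in the fit, a muscle score covariate, length and GC offsets, a replicate block and leaving out each mouse. The fit without control mice 2 and 4 and the muscle covariate with offsets were added after seeing the data. The fit was also run on counts simulated with the spread estimated from these data. That simulation built in no length trend, muscle difference or outlying mouse, so it does not speak to those.

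Members, lists and tests were chosen with earlier results of these data known. Named genes are, among called genes without overlap and with an average of 1 or more log2 CPM, those with the largest change (12 per direction) or lowest p (8), up to 4 called and 4 uncalled genes per list, the Notch genes, and up to 3 per direction for each difference test. Pdgfrb, further called members of the pericyte, cholesterol and macrophage lists, and members of the 5 lists assembled afterwards were chosen after their values were seen. The counts cover all list members, and 1 gene that the rule names is not reported here. No pair of libraries within either 7 d group agreed within sampling noise.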

Additional observations from a re-analysis of the deposited data

Results flagged for a closer look

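These genes had an antibody difference at 7 d that departed from another antibody comparison by the test of the difference itself (edgeR, adjusted p under 0.05), given as the log2 fold change at 7 d minus the other. Among the genes listed for these tests, Eva1a, Des, Aebp1, Trit1, Fam50a and Plk2 were not called in the 7 d comparison itself. Against 7 d with hormone the gene was Eva1a (-2.14).

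Against 5 d, the values above 0 were those of Mmp12 (5.58), Des (5.34), Thbs2 (4.31), Aebp1 (3.91), Larp6 (3.66), Cbs (3.33), Slc43a1 (2.91), Mmp11 (2.75), Pik3ip1 (2.46), Gsn (1.96), Ppl (1.89), Galnt15 (1.61), Mmp28 (1.32), Sfxn2 (1.04) and Rxra (0.97). Those below 0 were of Tmem184a (-2.58), Postn (-1.36), Emcn (-1.18), Tspan6 (-1.11), Trit1 (-1.07) and Fam50a (-0.83). Their adjusted p ran from 0.00308 to 0.0474. These calls against 5 d were lost with the muscle score as a covariate and without control mice 2 and 4.

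Against 15 h, the values above 0 were those of Mmp12 (6.35), Atp6v0d2 (5.80), Gpnmb (4.60), Mmp11 (3.48), Slc7a8 (3.43), Pik3ip1 (3.35), Rassf4 (2.66), Thbs2 (2.64), Bmf (1.69), Galnt15 (1.64), Igfbp3 (1.57), Plk2 (1.46) and Papss2 (1.44). Those below 0 were of Hebp2 (-3.50), Ncan (-3.26), Spon2 (-2.88), Il18bp (-2.37), Col3a1 (-2.18), Postn (-2.15), Higd1b (-2.01), Orm1 (-1.75), H2-Q10 (-1.70), Rgs5 (-1.63), Elovl5 (-1.54), Dnajb1 (-1.42), Emcn (-1.05), Tspan6 (-0.95) and Cacybp (-0.86). Their adjusted p ran from 5.75e-04 to 0.0469. Without control mice 2 and 4, 8 of these 28 genes were called against 15 h: Mmp11, Hebp2, Plk2, Postn, Pik3ip1, Spon2, Rassf4 and Il18bp.

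Single mice stood far from the other 4 of their group, in log2 CPM with the nearest other mouse beside it. Jag antibody mouse 6 did so for Des (11.36, next 6.91), Thbs2 (6.22, next 3.88), Bckdha (9.10, next 9.99), Gpnmb (7.25, next 4.78), Atp6v0d2 (4.43, next 1.29) and Cxcl13 (6.05, next 2.71), and control mouse 4 for Elovl5 (6.82, next 7.77) and Hey2 (-0.0249, next 1.40). The others were Jag antibody mouse 10 for Trp53inp1 (4.85, next 6.00), control mouse 3 for Bmf (1.10, next 1.72), Jag antibody mouse 8 for Heyl (5.64, next 3.37) and control mouse 1 for Eva1a (1.62, next 2.87). Of 274 groups examined 12 stood apart in this way, and chance alone gives 13.7 (5% of groups). Mouse 6 also had the highest muscle score (12.3) and the lowest mitochondrial share (12.4%) of the 10, and control mouse 4 the fewest counts; the part of these in the values was not tested.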

How the results depend on the processing

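With the gene calls at 7 d (427), alternatives gave 191 without a low-count filter, 72 without control mice 2 and 4, 679 with the 20 mice at 7 d only, 53 with the 10 mice only, 858 with DESeq2 and 144 to 848 with 1 mouse left out; the other 7 stayed within 1.5 times. All 94 called genes named here kept their direction in every fit. As called genes among them, 94 were kept by DESeq2, 87 with length and GC offsets, 72 by limma, 57 without the filter, 35 without control mice 2 and 4, 29 with the 10 mice only, and 46 to 90 with 1 mouse left out.

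The difference from 7 d with hormone (1 gene) gave 0 without the filter, with the muscle covariate, with length and GC offsets, with both, without control mice 2 and 4, with 20 mice in either form, and 9 with DESeq2, 36 with limma and 0 to 2 with 1 mouse left out. That from 5 d (220) gave 63 without the filter, 0 with the muscle covariate alone or with offsets, 0 without control mice 2 and 4, 2 with the 20 mice only, 964 with DESeq2, 15 with limma and 5 to 968 with 1 mouse left out. That from 15 h (223) gave 65, 12, 7, 638 and 78 without the filter, without control mice 2 and 4, with the 20 mice only, with DESeq2 and with limma, and 10 to 696 with 1 mouse left out. The causes were not tested.

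The replicate numbers run 1 to 5 in control and 6 to 10 in Jag antibody mice, so no number pairs the groups compared; same-numbered mice of other times correlated at 0.09 to 0.21 on average, with a pair below 0.1 in every pair of groups, and the numbers share no animal. A replicate block gave 404 calls at 7 d (520 with length and GC offsets), and 0, 371 and 35 for the differences from hormone, 5 d and 15 h (0, 441 and 95 with offsets).

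Reversed values were all of uncalled genes. They were Bckdha with offsets (0.0913), block and offsets (0.0608), muscle and offsets (0.115) and without control mice 2 and 4 (0.135); Pdk4 with offsets (0.0135) and muscle and offsets (0.0456); Notch2 with offsets, block and offsets, and muscle and offsets (-0.0764, -0.0820 and -0.0507); and, without control mice 2 and 4, Heyl (0.171) and Atp5b (2.55e-04). Cspg4 was 0.00393 without the filter. With 1 mouse left out the ranges were -0.23 to 0.17 for Cspg4, -1.16 to 2.29 for Des, -0.45 to 0.11 for Hmgcs1, -0.20 to 0.0696 for Bckdha, -0.35 to 0.0661 for Pdk4 and -1.18 to 0.15 for Heyl. The group difference in muscle score ran from -0.562 (without Jag antibody mouse 6) to 3.24, and that in length slope from 0.102 to 0.248, past the threshold without control mouse 1 or 3. Genes near 1 CPM rest on few counts in every library.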
